A study of Homo sapiens with 15 samples.

Results

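Expression of 9 amino acid transporter genes was followed in Caco-2, a human colorectal carcinoma line of epithelial origin. The genes were chosen by name, with earlier results of these data known: SLC7A11, SLC7A5, SLC7A1, SLC7A7, SLC3A2, SLC6A20, SLC38A2, SLC1A4 and SLC1A5. They are 9 of the 19775 genes that the arrays name, and all 9 were among the 8737 genes with enough signal to be tested. Each gene was read from the probe set (a group of short probes for a transcript) with the highest mean over the 15 arrays. The members have 22 probe sets in all, and the others served as a check.

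The cells were undifferentiated and each treatment lasted 24 h, with 1 Affymetrix array per treatment. Of the 15 arrays, 1 had medium alone, 1 had 100 mM NaCl, a salt control, and 1 had 5 mM butyrate, a short-chain fatty acid of bacterial fermentation that inhibits histone deacetylases. The other 12 had cell-free fluid from a colon simulator at 10% by volume in serum-free medium. In the simulator 0%, 1% or 2% polydextrose, a poorly digested glucose polymer, was fermented for 48 h in 4 linked vessels. Vessel 1 models the ascending colon, vessel 2 the transverse and vessel 3 the descending part, and vessel 4 the sigmoid and rectal end. The labels list no repeat cultures, so p-values measure only the spread among these 12 arrays. Each concentration was 1 simulation, so the simulation and the concentration cannot be told apart. All values are log2 expression values, and their differences are log2 changes. An array reads a mixed extract, in which fewer cells of a kind and less RNA per cell cannot be told apart.

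Amino acids are too polar to cross a membrane alone, so cells carry them on transporter proteins that differ in what they take and what drives them. Some light chains, among them those made by SLC7A5, SLC7A7 and SLC7A11, work only when paired with the heavy chain from SLC3A2, which brings them to the cell surface. They exchange an amino acid on one side for another on the other side. SLC7A5 (LAT1) takes up leucine and other large neutral amino acids, SLC7A7 (y+LAT1) lets arginine and lysine out on the blood side of intestinal cells, and SLC7A11 (xCT) brings in cystine, from which cells make glutathione, in exchange for glutamate. SLC7A1 (CAT1) carries arginine and lysine without a heavy chain. The sodium-dependent carriers are SLC38A2 (SNAT2), which concentrates small neutral amino acids such as alanine and glutamine, SLC1A4 (ASCT1) and SLC1A5 (ASCT2), which exchange serine, alanine, cysteine or glutamine, and SLC6A20 (SIT1), a carrier of proline and related imino acids in gut and kidney.

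Promoters were matched for 8 of the 9 genes, with 15 windows that hold the 250 bases before a transcription start (RefSeq, GRCh38.p14). The 4 shown belong to genes whose values moved together. SLC7A7 and SLC6A20 were both lower with polydextrose, and SLC3A2 and SLC38A2 both had their highest reading on the NaCl array. SLC7A11 and SLC7A1 also moved together, but no window was matched for SLC7A11. SLC7A7 start 1 lies at chr14:22819792-22820041 on the minus strand, SLC6A20 at chr3:45796537-45796786 on the minus strand, SLC3A2 start 1 at chr11:62881449-62881698 on the plus strand and SLC38A2 at chr12:46372774-46373023 on the minus strand. Each is written 5′ to 3′ towards the start. Capitals mark matches, on either strand, to the motifs described after the sequences.
SLC7A7 start 1: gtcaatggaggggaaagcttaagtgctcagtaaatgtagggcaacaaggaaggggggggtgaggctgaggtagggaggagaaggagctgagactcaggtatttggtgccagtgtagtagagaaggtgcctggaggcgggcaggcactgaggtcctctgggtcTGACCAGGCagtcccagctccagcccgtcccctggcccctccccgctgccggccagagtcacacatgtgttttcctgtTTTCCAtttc
SLC6A20: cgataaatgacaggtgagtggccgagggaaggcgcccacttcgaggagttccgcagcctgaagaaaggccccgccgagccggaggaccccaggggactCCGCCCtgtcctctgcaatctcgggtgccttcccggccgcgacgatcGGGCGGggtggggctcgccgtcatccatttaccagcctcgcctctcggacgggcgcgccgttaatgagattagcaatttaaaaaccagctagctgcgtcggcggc
SLC3A2 start 1: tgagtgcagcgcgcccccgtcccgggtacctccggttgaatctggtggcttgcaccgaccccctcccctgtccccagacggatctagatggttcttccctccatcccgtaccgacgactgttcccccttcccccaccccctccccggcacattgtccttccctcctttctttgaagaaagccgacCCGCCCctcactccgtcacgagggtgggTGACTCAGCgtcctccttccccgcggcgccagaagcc
SLC38A2: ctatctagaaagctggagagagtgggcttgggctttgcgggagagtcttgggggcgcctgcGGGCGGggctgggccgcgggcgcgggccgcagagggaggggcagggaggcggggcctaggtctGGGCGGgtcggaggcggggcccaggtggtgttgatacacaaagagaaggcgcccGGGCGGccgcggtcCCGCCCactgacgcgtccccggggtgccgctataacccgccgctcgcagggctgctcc

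Motifs were searched on both strands: TGATGNAA (the core of the element bound by ATF4 with a C/EBP partner), TGACNNNGC (the core of the antioxidant response element), GGGCGG (the GC box) and TGGAAA (the core of the tonicity element, added after the values had been seen). The windows of all genes, 35116 in number, held TGATGNAA in 3.1%, TGACNNNGC in 10.9%, GGGCGG in 42.6% and TGGAAA in 18.0%. Among the 15 windows of the transporters the counts were 1, 4, 9 and 1. TGATGNAA was found at SLC1A5 start 3. TGACNNNGC was found at SLC7A1, SLC7A7 start 1, SLC3A2 start 1 and SLC1A5 start 2, and it reads TGACCAGGC in the SLC7A7 window and TGACTCAGC in that of SLC3A2. In the SLC6A20 and SLC38A2 windows the GC box was the only motif of these that matched, 2 times at SLC6A20 and 4 times at SLC38A2. SLC7A7 starts 2 and 3, which are not shown, held no match. A match describes the letters of the window only.

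Between 42.27% and 44.1% of genes reached log2 5 on each array. ACTB, the actin control gene, is read at both ends, and the excess of its 3′ over its 5′ reading, which grows as RNA degrades, was 0.951 for medium, 0.641 for NaCl and 0.585 for butyrate. In vessel 1 it was 0.726, 0.924 and 0.620 at 0%, 1% and 2%, against 0.366 to 0.636 in the later vessels. Of 10 epithelial markers 6 (EPCAM, CDH1, KRT8, KRT18, KRT19 and KRT20) were at log2 5 or more on all 15 arrays, and VIL1, CDX1, CDX2 and LGALS4 were under it on all of them. All 6 leukocyte markers that could be matched and 7 of 8 fibroblast markers were under log2 5 throughout. The exception was the collagen gene COL1A1, from 1.37 in medium to 8.26.

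**Figure D1:**
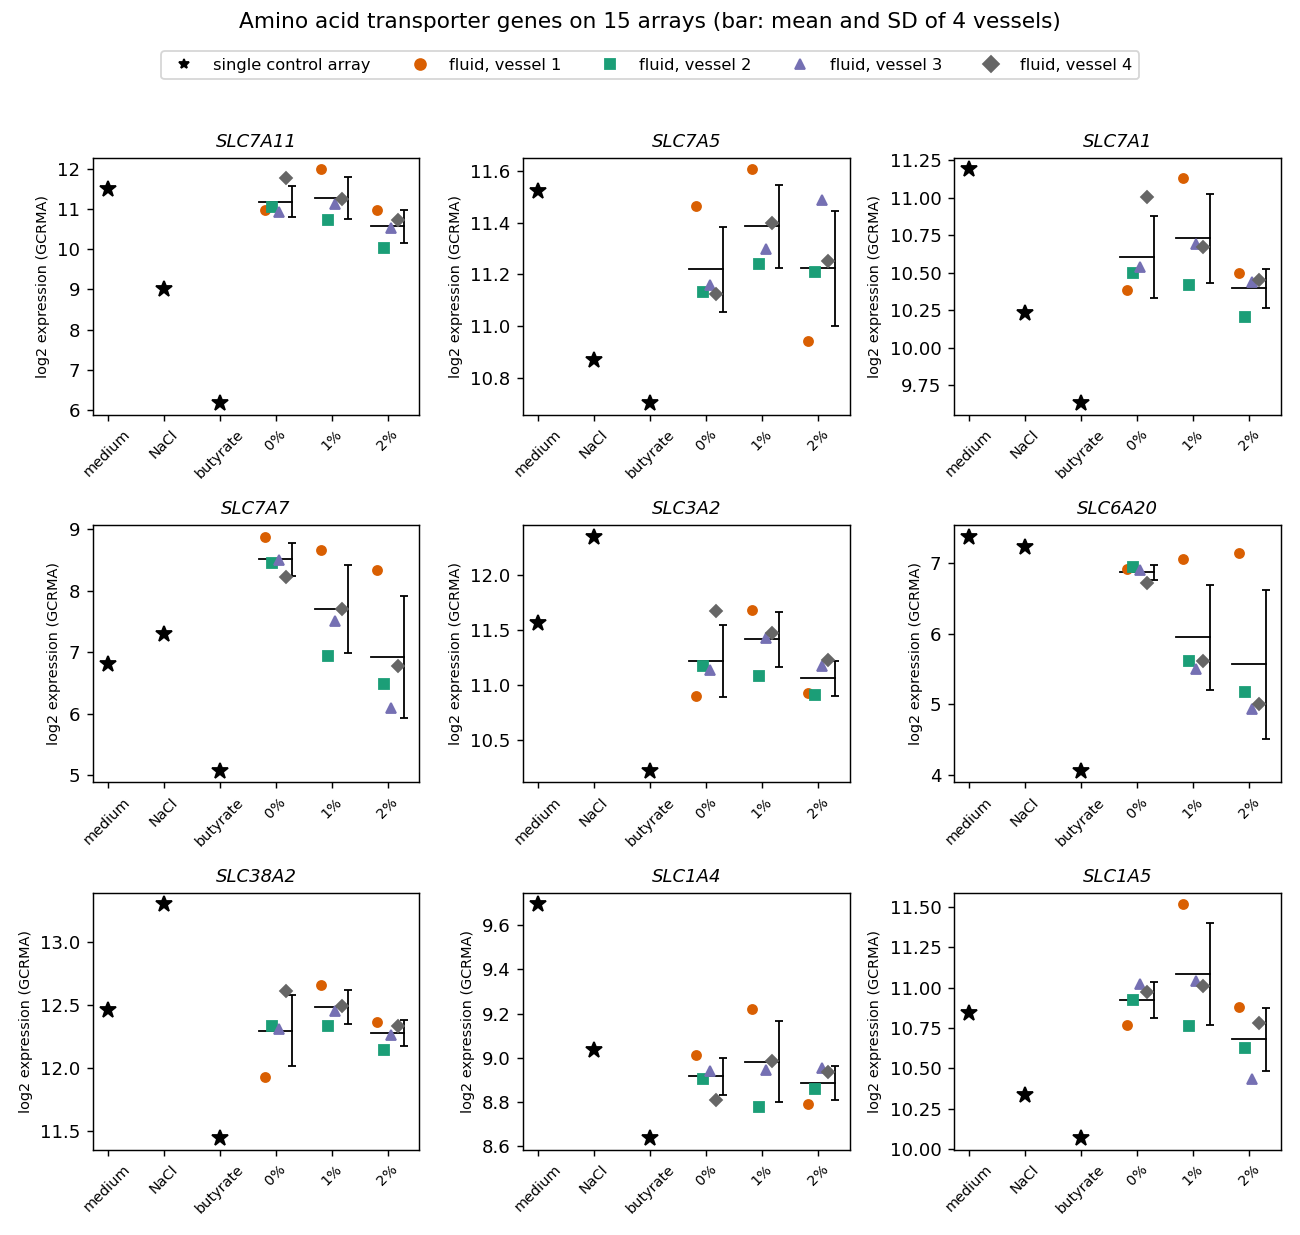
Log2 expression of each transporter gene on the 15 arrays; stars are the single medium, NaCl and butyrate arrays, other symbols are the fluid arrays at 0%, 1% and 2% polydextrose by vessel, lines and bars are the mean and SD of 4 vessels, and each panel has its own scale. The butyrate array has the lowest reading in all 9 panels (for SLC6A20 under log2 5, as is the lowest fluid array), and in the SLC6A20 panel vessel 1 stays near 7 at every concentration.

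The butyrate array had the lowest reading of the 15 for each of the 9 transporters, though for SLC6A20 its order against the lowest fluid array is not reliable, and the largest measured difference from medium was that of the cystine carrier. SLC7A11 was at 11.50 in medium and 6.17 with butyrate, a difference of -5.34 or 40.4-fold lower. This was the third largest negative difference among 7584 genes measured on both arrays. The 12 fluid arrays lay between 10.03 and 11.99 for SLC7A11, so the butyrate array was 3.87 below the lowest of them. SLC6A20, the imino acid carrier, was at 7.37 in medium and at 4.06 with butyrate, which is under the low-signal limit of log2 5, so it is given as at least 5.17-fold lower.

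The remaining differences from medium with butyrate were smaller. SLC7A7 went from 6.81 to 5.07 (-1.74) and SLC7A1 from 11.19 to 9.63 (-1.56). The heavy chain SLC3A2 went from 11.56 to 10.22 (-1.34), while its light chain SLC7A5 went from 11.52 to 10.70 (-0.82). Among the sodium-dependent carriers SLC1A4 differed by -1.06, SLC38A2 by -1.02 and SLC1A5 by -0.77. Counted at a log2 difference of 1 or more, 7 of 9 transporters were lower and 0 higher, where 15.6% of the 8057 genes compared were lower and 15.6% higher. The median difference was -1.34 for the transporters and 0.00 for all genes compared. There is 1 array on each side and no replicate check, so no test was made. After quantile normalization of the deposited values SLC38A2 just missed the limit, which left 6 of 9. COL1A1 moved with butyrate too, from 1.37 in medium to 8.13, while the 7 other fibroblast markers were under log2 5 on both arrays. Of 6 epithelial markers compared, 2 were higher with butyrate by 1 or more, KRT20 (1.75) and KRT19 (1.22), and 0 were lower. The median of the 6 was 0.22, with EPCAM at -0.48, where 15.6% of all genes were higher. The ACTB 3′ to 5′ difference was 0.951 in medium, the highest of the 15 arrays, and 0.585 with butyrate. The part of these measures in the values of the transporters was not tested.

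Against the fluids the butyrate array was below all 12 for 9 of 9 transporters, where 23.6% of 7834 genes were below all 12 and 26.3% above. For SLC6A20 the lowest fluid array (4.94) and the butyrate array (4.06) were both under log2 5, so these 2 have no reliable order and no gap is given. The gap to the lowest fluid array was 1.02 for SLC7A7, 0.68 for SLC3A2, 0.58 for SLC7A1, 0.49 for SLC38A2, 0.36 for SLC1A5, 0.24 for SLC7A5 and 0.14 for SLC1A4. For SLC1A4 and SLC7A5 the gap was narrow, little more than the SD of the fluid arrays (0.12 and 0.19, n = 12). With the mean of each gene's probe sets 7 of 9 were counted as outside the range of the fluids, SLC1A4 and SLC7A5 among them. SLC7A1 and SLC6A20 were then too dim to be compared and were left out of the count, so neither was found inside the range.

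**Figure D2:**
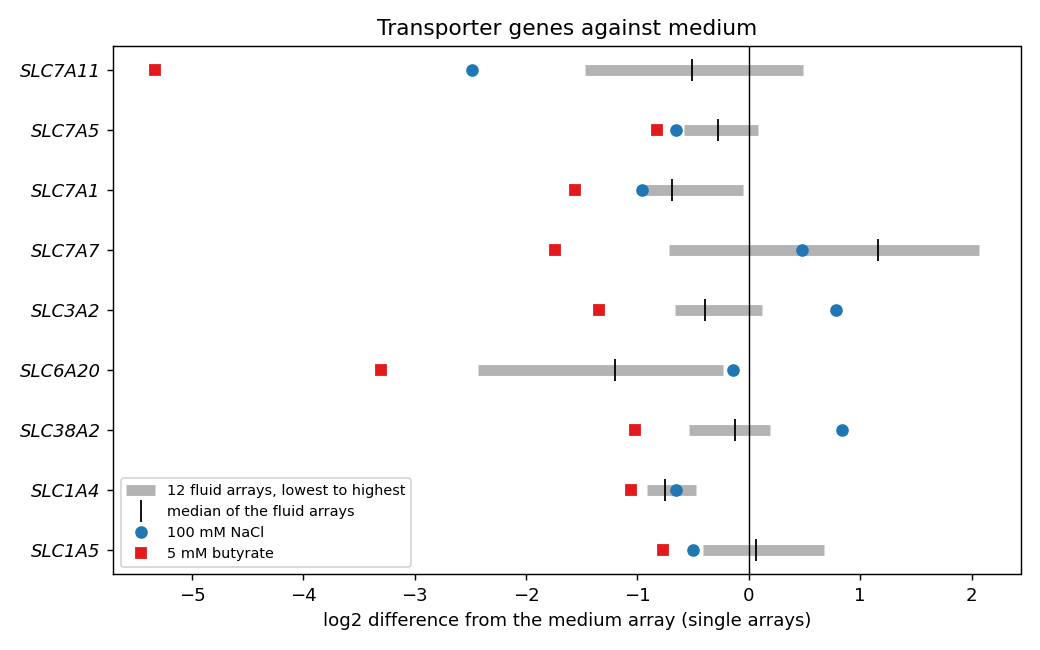
Log2 difference from the medium array for each gene; grey bars run from the lowest to the highest of the 12 fluid arrays, ticks are their median, circles the NaCl array and squares the butyrate array. Butyrate lies left of every grey bar, furthest at SLC7A11 (-5.34), and NaCl lies right of it for SLC38A2 and SLC3A2.

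On the NaCl array the transporters differed from medium in both directions, and only SLC7A11 by 1 or more. SLC38A2, the carrier that gathers small neutral amino acids, was at 13.30 against 12.46 in medium, a difference of 0.84. SLC3A2 was at 12.35 against 11.56, a difference of 0.79. These were the highest values of all 15 arrays for both genes, above the highest fluid array by 0.64 for SLC38A2 and 0.66 for SLC3A2. SLC7A11 lay on the other side at 9.01, a difference of -2.49 from medium or 5.60-fold lower, and it ranked 15th among 7681 genes by size of negative difference.

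The light chain SLC7A5 did not follow SLC3A2 on the NaCl array, with 10.87 against 11.52 in medium (-0.65). SLC7A7 was at 7.29 against 6.81 (0.48). The other carriers differed by -0.96 for SLC7A1, -0.66 for SLC1A4, -0.50 for SLC1A5 and -0.14 for SLC6A20. Counted at a log2 difference of 1, SLC7A11 was the only one of 9 to be lower and 0 were higher, where 7.67% of 7874 genes were lower and 8.93% higher. The NaCl array was above all 12 fluid arrays for SLC3A2, SLC38A2 and SLC6A20, where 34.4% of 8035 genes were above. It was below all 12 for SLC7A11, SLC7A5 and SLC1A5, where 31.5% were below. The gap was narrow for SLC6A20 (0.09), SLC7A5 (0.08) and SLC1A5 (0.10). For these it was less than the SD of the fluid arrays (0.88, 0.19 and 0.27, n = 12).

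The medium array stood above all 12 fluid arrays for 3 of 9 transporters and below them for 0, where 31.1% of 7884 genes were above and 31.1% below. The 3 were SLC1A4, at 9.69 against 8.78 to 9.22 in the fluids, SLC6A20, at 7.37 against 4.94 to 7.14, and SLC7A1, at 11.19 against 10.21 to 11.13. For SLC7A1 the gap was 0.05, less than the spread of the fluid arrays (SD 0.26, n = 12). Without the array of 1% in vessel 1 the count was 4 of 9. SLC7A7 had the opposite tendency: medium was at 6.81, all 4 arrays of 0% fluid were at 8.22 to 8.88, and 3 of the 12 fluid arrays, all of 2% polydextrose in vessels 2 to 4, were below medium.

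More polydextrose in the simulator went with less SLC7A7 and less SLC6A20. With 0% fluid SLC7A7 was at 8.88, 8.46, 8.50 and 8.22 in vessels 1 to 4. With 1% it was at 8.66, 6.93, 7.51 and 7.71, and with 2% at 8.34, 6.49, 6.09 and 6.77. Vessel 1 was the highest array at each concentration, and the 2% array of vessel 1 was the only one of 2% inside the range of the 0% arrays. The mean fell from 8.51 ± 0.27 to 6.92 ± 0.99 (SD, n = 4), a log2 change of -1.59 (SE 0.26, 95% confidence interval -2.19 to -0.99, limma adjusted p = 0.0056). It was lower with 2% than with 0% in 4 of 4 vessels, with differences of -0.53, -1.97, -2.41 and -1.45.

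SLC6A20 was at 6.92, 6.94, 6.90 and 6.71 with 0% fluid in vessels 1 to 4. With 1% it was at 7.06, 5.62, 5.50 and 5.61, and with 2% at 7.14, 5.18, 4.94 and 5.01. The 4 arrays of 0% were close together, while at 1% and 2% vessel 1 stood more than 1 above the other arrays, which lay close together. The mean fell from 6.87 ± 0.11 to 5.57 ± 1.05 (SD, n = 4), a log2 change of -1.30 (SE 0.30, 95% confidence interval -1.99 to -0.62, limma adjusted p = 0.0191). The change was negative in 3 of 4 vessels (-1.77, -1.96 and -1.70 in vessels 2 to 4) and 0.22 in vessel 1. This call was lost without any 1 of the 0% and 2% arrays of vessels 2, 3 and 4 (limma adjusted p from 0.0653 to 0.0755), and with only the 8 arrays compared (0.0750).

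SLC7A7 and SLC6A20 were the 2 of 9 transporters that passed the test for 2% against 0% (an adjusted p under 0.05). Both were lower and 0 were higher, where 11.2% of the 8737 genes tested were lower and 9.65% higher. The median change was -0.21 over the 9 transporters and -0.01 over all genes. Without the vessel as a block neither passed, at limma adjusted p = 0.214 for each.

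The other transporters did not pass, and their intervals show how large a change the arrays leave room for. SLC7A11 had a change of -0.62 (95% confidence interval -1.10 to -0.14, limma adjusted p = 0.0673). Its arrays were at 10.99, 11.06, 10.93 and 11.78 with 0%, at 11.99, 10.73, 11.12 and 11.25 with 1% and at 10.99, 10.03, 10.53 and 10.72 with 2%. In vessels 2 to 4 every 2% array was below every 0% array, and in vessel 1 the values at 0% and 2% were alike. With the mean of its 3 probe sets SLC7A11 passed (-0.81, limma adjusted p = 0.0411). SLC1A5 had a change of -0.24 (-0.56 to 0.08), SLC7A1 of -0.21 (-0.54 to 0.12) and SLC3A2 of -0.16 (-0.49 to 0.16). SLC1A4 was at -0.03 (-0.24 to 0.18), SLC38A2 at -0.02 (-0.31 to 0.27) and SLC7A5 at 0.00 (-0.30 to 0.30).

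The heavy chain SLC3A2 had means in the fluids of 11.22 ± 0.33, 11.42 ± 0.25 and 11.06 ± 0.16 (SD, n = 4) at 0%, 1% and 2%. Its lowest arrays were those of vessel 1 with 0% (10.90) and of vessel 2 with 2% (10.91), and its highest was vessel 1 with 1% (11.68). SLC38A2 had the same highest and lowest fluid, from 11.93 in vessel 1 with 0% to 12.66 in vessel 1 with 1%, and means of 12.30 ± 0.28, 12.49 ± 0.13 and 12.28 ± 0.10 (SD, n = 4). The vessel 1 array of 1% was the highest of the 12 fluids for SLC7A11, SLC7A5, SLC7A1, SLC3A2, SLC38A2, SLC1A4 and SLC1A5, that is for every transporter apart from SLC7A7 and SLC6A20. On that array the ACTB reading of RNA integrity was also the highest of the fluids (0.924), and its part in these values was not tested. SLC7A5 had means of 11.22 ± 0.16, 11.39 ± 0.16 and 11.22 ± 0.22, and SLC1A4 had 8.92 ± 0.09, 8.98 ± 0.18 and 8.89 ± 0.08 (SD, n = 4), so the concentrations overlapped for both.

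At 1% against 0% polydextrose 0 of 9 transporters passed in limma, where 2.15% of genes were lower and 2.63% higher. At an unadjusted p under 0.05 there were 2176 of 8737 genes and 2 of 9 transporters. The 2 transporters were SLC6A20 (-0.92, SE 0.30, adjusted p = 0.108) and SLC7A7 (-0.81, SE 0.26, adjusted p = 0.104). The other 7 had positive changes of 0.07 to 0.20, with a median over all 9 of 0.12. Vessel 1 had the highest difference of the 4 vessels for 6 of these, with 1.00 for SLC7A11, 0.78 for SLC3A2, 0.75 for SLC7A1, 0.75 for SLC1A5, 0.73 for SLC38A2 and 0.21 for SLC1A4. Without the 0% array of vessel 1 both SLC7A7 (-1.09, adjusted p = 0.0192) and SLC6A20 (-1.35, adjusted p = 0.0036) passed. SLC6A20 also passed without the 2% array of vessel 1 (adjusted p = 0.0490).

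For 2% against 1% no gene passed in limma, so the transporters had 0 of 9 where 0% of genes were higher and 0% lower. At an unadjusted p under 0.05 there were 1608 of 8737 genes and 5 of 9 transporters: SLC7A11, SLC7A7, SLC1A5, SLC3A2 and SLC7A1. All 9 changes were negative, from -0.78 for SLC7A7 and -0.71 for SLC7A11 to -0.10 for SLC1A4, with a median of -0.36 against -0.03 over all genes. The 3 comparisons of concentrations share arrays, so these values are not separate evidence.

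**Figure D3:**
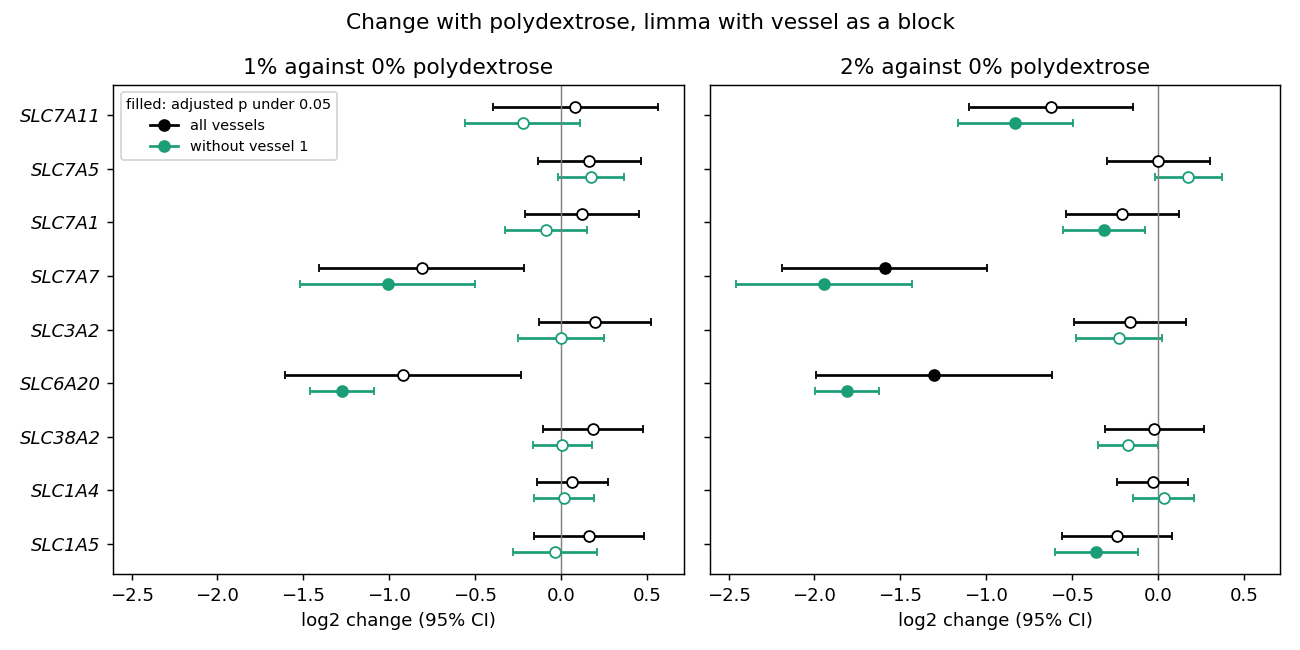
Log2 change of each transporter at 1% (left) and 2% (right) against 0% polydextrose, with 95% confidence intervals from limma and vessel as a block; black is all 4 vessels, green is vessels 2 to 4, and filled symbols have an adjusted p under 0.05. With all vessels SLC7A7 (-1.59) and SLC6A20 (-1.30) pass at 2%, and without vessel 1 the interval of SLC6A20 is much shorter.

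Vessel 1, the ascending colon, held both falling genes higher than the later vessels. SLC7A7 had a mean of 8.63 ± 0.27 (SD, n = 3) in vessel 1 and 7.41 ± 0.89 (SD, n = 9) in vessels 2 to 4, a difference of 1.22 (SE 0.25, limma adjusted p = 0.0065). SLC6A20 had 7.04 ± 0.11 (SD, n = 3) and 5.82 ± 0.81 (SD, n = 9), also a difference of 1.22 (SE 0.29, limma adjusted p = 0.0116). They were 2 of 9 higher and 0 lower, where 19.3% of genes were higher and 15.4% lower in vessel 1. The call for SLC6A20 was lost without the 1% array (adjusted p = 0.0751) or the 2% array (adjusted p = 0.0669) of vessel 1. Among the other transporters the differences ran from -0.08 for SLC3A2 to 0.41 for SLC7A11 and did not pass. Without the 0% array of vessel 1, where SLC7A11 and SLC1A5 were below the mean of the later vessels, these 2 passed as well (0.76, adjusted p = 0.0048 and 0.42, adjusted p = 0.0176), and without its 2% array SLC7A5 did (0.31, adjusted p = 0.0364). With the concentration left out of the fit neither SLC7A7 (limma adjusted p = 0.115) nor SLC6A20 (0.0955) passed. In the same comparison the fibroblast marker COL1A1 (-1.03, adjusted p = 0.0198) and KRT20, 1 of 6 epithelial markers tested, (-0.30, adjusted p = 0.0293) were lower in vessel 1. The ACTB 3′ to 5′ difference was also highest in vessel 1 at each concentration, and the part of these measures in the differences was not tested.

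The gap between vessel 1 and the later vessels widened with polydextrose for SLC6A20. It was 0.07 at 0%, 1.48 at 1% and 2.10 at 2%. Tested as a difference in slope, vessel 1 minus vessels 2 to 4, it was 1.01 per 1% polydextrose (SE 0.11, 95% confidence interval 0.76 to 1.27, limma adjusted p = 0.0226). SLC6A20 was the 1 of 9 transporters to pass with a higher slope and 0 had a lower one, where 0.824% of genes had a higher slope and 0.343% a lower one. The call was lost without the vessel 1 array of 0% (a slope difference of 0.61, adjusted p = 0.271), the 0% arrays of vessel 2 (0.0577) or vessel 4 (0.0603) or the 2% array of vessel 3 (0.0516).

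For SLC7A7 the gap was 0.48, 1.27 and 1.90 at 0%, 1% and 2%, and the slope difference of 0.71 (SE 0.21, limma adjusted p = 0.123) did not pass. SLC7A5 had the reverse sign, with vessel 1 at 11.47, 11.61 and 10.94 against means of 11.14, 11.31 and 11.32 in the later vessels, and a slope difference of -0.35 (SE 0.10, limma adjusted p = 0.128). In SLC38A2 the 0% array of vessel 1 was the lowest of the 12 at 11.93, and the slope difference was 0.31 (SE 0.11, limma adjusted p = 0.179). It passed without the 2% array of vessel 1, at 0.72 (adjusted p = 0.0487).

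**Figure D4:**
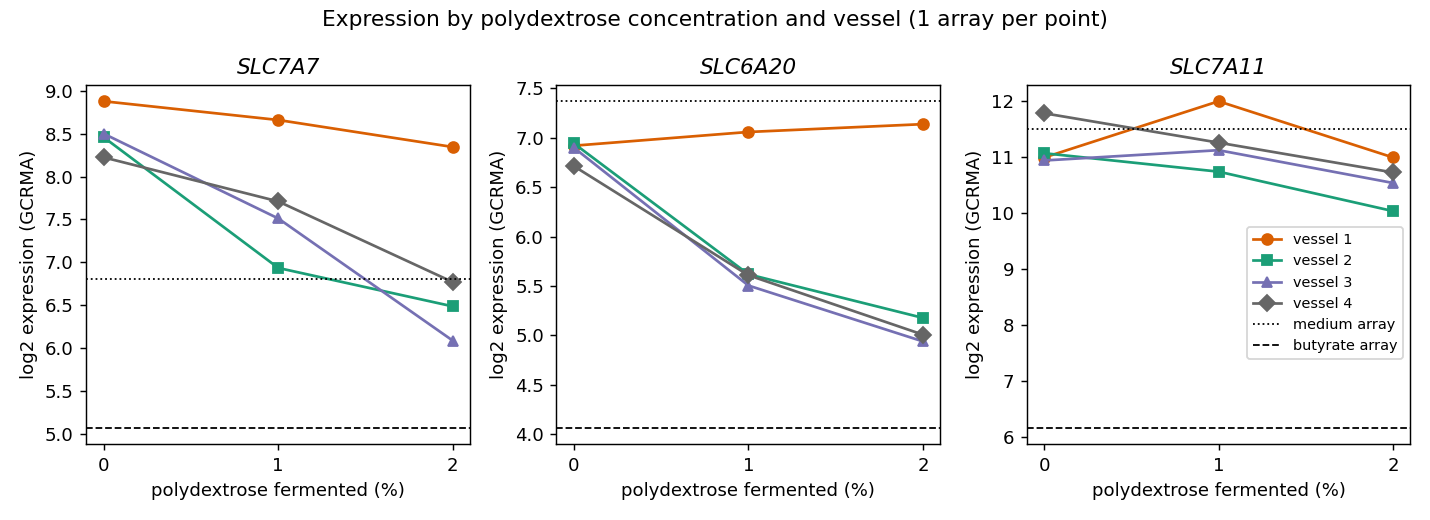
Log2 expression of SLC7A7, SLC6A20 and SLC7A11 against the polydextrose concentration in the simulator, 1 line per vessel and 1 array per point; dotted lines are the medium array and dashed lines the butyrate array. The lines of vessels 2 to 4 run down for SLC6A20, from 6.71 to 6.94 at 0% to 4.94 to 5.18 at 2%, while vessel 1 goes from 6.92 to 7.14.

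Within vessels 2 to 4 alone, 5 of 9 transporters were lower with 2% than with 0% and 0 were higher, where 20.1% of genes were lower and 16.6% higher. SLC6A20 fell from 6.85 ± 0.12 through 5.58 ± 0.06 to 5.04 ± 0.12 (SD, n = 3) at 0%, 1% and 2%, and the groups did not overlap. Its change at 2% was -1.81 (SE 0.08, limma adjusted p = 7.11e-05). SLC7A7 fell from 8.39 ± 0.15 through 7.39 ± 0.40 to 6.45 ± 0.34 (SD, n = 3), without overlap, and its change at 2% was -1.95 (SE 0.22, limma adjusted p = 0.000922). SLC7A11 also fell (-0.83, SE 0.14, adjusted p = 0.0046), as did SLC1A5 (-0.36, SE 0.10, adjusted p = 0.0316) and SLC7A1 (-0.32, SE 0.10, adjusted p = 0.0456). The glutamine carrier SLC1A5 had 10.92, 11.02 and 10.98 with 0% and 10.63, 10.43 and 10.78 with 2% in vessels 2, 3 and 4. The arginine carrier SLC7A1 had a mean of 10.68 ± 0.28 with 0% and 10.36 ± 0.14 with 2% (SD, n = 3), and its groups did not overlap. SLC7A11, SLC7A1 and SLC1A5 also passed over the 12 arrays once the 0% array of vessel 1 alone was left out, and SLC7A11 once the 1% array of vessel 1 was.

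In the same 3 vessels SLC6A20 (-1.27, SE 0.08, limma adjusted p = 0.0013) and SLC7A7 (-1.01, SE 0.22, limma adjusted p = 0.0282) were lower with 1% than with 0%, 2 of 9 where 6.39% of genes were lower and 6.62% higher. From 1% to 2% SLC6A20 fell further (-0.54, SE 0.08, limma adjusted p = 0.0316), 1 of 9 where 1.22% of genes were lower and 0.389% higher. SLC7A7 (-0.94, adjusted p = 0.0715) and SLC7A11 (-0.61, adjusted p = 0.0750) did not pass in that step. SLC1A4 stayed between 8.78 and 8.98 on all 9 arrays of vessels 2 to 4, and its change from 0% to 2% was 0.03 (95% confidence interval -0.14 to 0.21). SLC7A5 had 0.18 (-0.02 to 0.37), SLC38A2 -0.17 (-0.35 to 0.00) and SLC3A2 -0.23 (-0.48 to 0.02), and these did not pass.

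Every other probe set of the same genes read lower with butyrate than with medium, though several were dim. On the NaCl array those of SLC7A11 were lower and those of SLC38A2 higher, as with the probe set used. Not every small change elsewhere shared a sign. At 2% against 0% SLC1A4 was at -0.03 and others of its probe sets at 0.02 and 0.13. In vessel 1 against the later vessels it was at 0.11 and another of its probe sets at -0.15. The slope difference of SLC7A1 was 0.22 and that of another probe set -0.01. At 1% against 0% SLC7A11 was at 0.08 and its dimmest probe set at -0.14. SLC7A11 has 3. The brighter of the other 2 differed by -6.34 between butyrate and medium and by -2.67 between NaCl and medium. The dimmer one read 6.55 in medium, 3.87 with NaCl and 1.01 with butyrate, so both treated arrays were under log2 5 and their differences have only a bound. The second probe set of SLC6A20 was lower with 2% than with 0% (-1.58, limma adjusted p = 0.0245 over all probe sets) and higher in vessel 1 (1.95, adjusted p = 0.0051). Its slope difference was 1.18 and missed the threshold (adjusted p = 0.0567). This probe set read between 3.68 and 4.86 on the 6 arrays of 1% and 2% in vessels 2 to 4, all under log2 5, so the sizes of these changes rest on signal under the low limit. The other 2 probe sets of SLC38A2 differed by 1.08 and 0.96 between NaCl and medium, so 1 of them passes the limit of 1 that the probe set used did not. Of 5 probe sets of SLC7A1, 3 were too dim to be tested, as was 1 of 5 of SLC1A4. The brightest of the other SLC7A1 probe sets differed by -2.04 with butyrate, and the 3 other SLC1A4 probe sets that could be tested by -0.75 to -1.31. SLC7A5, SLC7A7, SLC3A2 and SLC1A5 have 1 probe set each, so no second reading was made for the fall of SLC7A7.

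**Figure D5:**
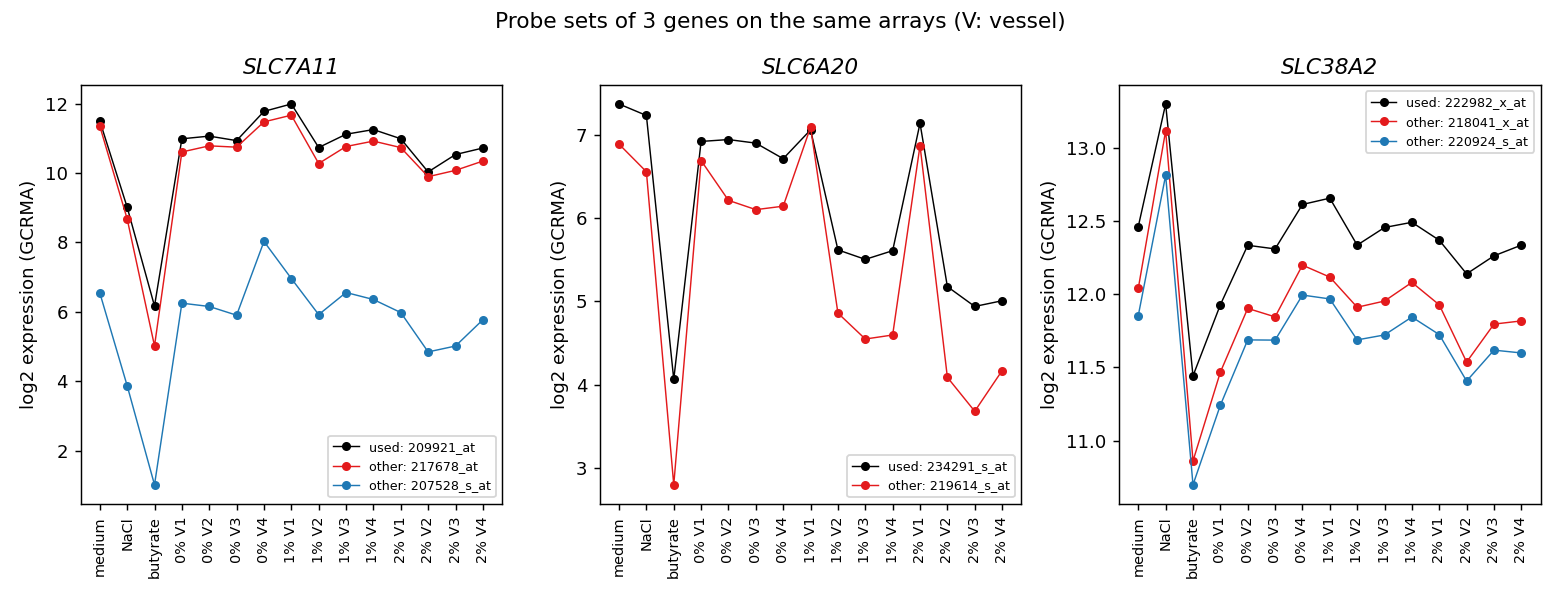
Log2 expression on the 15 arrays for each probe set of SLC7A11, SLC6A20 and SLC38A2; black is the probe set used, colours are the others, and the arrays run along the axis by treatment and vessel (V). The probe sets of a gene differ in level but dip on the butyrate array together, and those of SLC6A20 are high on all 3 arrays of vessel 1.

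Some transporters shared a pattern over the 15 arrays, described here by Pearson's r and Spearman's rho without a test, since all genes share the arrays and the butyrate array is low for each member. SLC3A2 and SLC38A2 had the highest r of the member pairs over 15 arrays (r 0.962, rho 0.912), and an r of 0.876 over the 12 fluid arrays. SLC7A11 and SLC7A1 had an r of 0.871 and a rho of 0.914, and over the fluids an r of 0.944. SLC7A7 and SLC6A20 had an r of 0.778 over all 15 arrays and 0.942 over the fluids. The heavy chain SLC3A2 and its partner SLC7A5 had an r of 0.243. Among all genes tested, the genes most like SLC6A20 by r over 15 arrays were GASK1B (0.986), OLR1 (0.981) and OGFRL1 (0.977), and those most like SLC7A7 were CAPN2 (0.961), TPD52L1 (0.934) and FBLIM1 (0.929). SLC7A11 was most like ZC3H12C (0.979), SLC7A1 like GABPB1 (0.960), SLC1A5 like GSTZ1 (0.940) and SLC1A4 like RSL1D1 (0.911). HNRNPDL and DPF2 were among the closest 3 for both SLC3A2 and SLC38A2. SLC7A5 had the weakest match, FOSL1, at 0.871.

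Other amino acid transporters were listed as a comparison, and 9 of the 28 had enough signal in the fluids to be tested. With 2% against 0% polydextrose 3 of 9 fell, 0 rose and 6 did not pass, with a median change of -0.20, where 11.2% of all genes were lower and 9.65% higher. SLC7A6 (y+LAT2), a close relative of SLC7A7 that also pairs with SLC3A2, fell by 0.69 (SE 0.10, limma adjusted p = 0.0027), and it was lower at 1% as well (-0.56, adjusted p = 0.0231). SLC38A1, a glutamine carrier related to SLC38A2, fell by 0.61 (adjusted p = 0.0265), and SLC1A1, a glutamate carrier, fell by 0.55 (adjusted p = 0.0480). In vessel 1 against the later vessels 5 of 9 were higher (19.3% of all genes), among them SLC7A8 (0.72, adjusted p = 0.0082) and SLC7A6 (0.58, adjusted p = 0.0023), and SLC36A1 was lower (-0.37, adjusted p = 0.0425; 15.4% of all genes). SLC1A1 was the 1 of 9 with a slope difference (0.53, adjusted p = 0.0371), where 0.824% of all genes had a higher slope. On single arrays butyrate was lower than medium by at least 1 for 6 of the 10 listed transporters that could be compared (15.6% of all genes), with SLC38A1 at -3.07, and higher for SLC36A1 (2.08). With NaCl 2 of 11 were higher (8.93% of all genes), SLC7A6 (1.57) and SLC1A3 (2.42), and 2 were lower (7.67% of all genes).

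ATF4 is a transcription factor that cells make when amino acids run short, and several of the 9 transporters, SLC7A11 and SLC3A2 among them, are known targets. Of 20 other genes of this response tested at 2% against 0%, 3 rose (ATF3 by 1.23, ASNS, the asparagine synthetase, by 0.43 and PSPH, of serine synthesis, by 0.26), 1 fell (ALDH18A1, of proline synthesis, -0.44) and 16 did not pass, with a median of 0.08, against 9.65% of all genes higher and 11.2% lower. In vessel 1 against the later vessels 7 of 20 were lower (15.4% of all genes), with DDIT3 at -1.73 (limma adjusted p = 0.0113), ATF3 at -1.55 (adjusted p = 0.0023) and ASNS at -0.64 (adjusted p = 0.0050), and 2 were higher (19.3% of all genes). SLC7A7 and SLC6A20 were higher in the same comparison. On single arrays 11 of 20 were lower with butyrate than with medium (15.6% of all genes), among them TRIB3 (-3.44), PYCR1 (-1.99) and ATF4 itself (-1.23), and CTH was higher (1.51). With NaCl 7 of 20 were lower (7.67% of all genes), with DDIT3 at -2.44, and 0 higher.

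Of 17 aminoacyl-tRNA synthetases, which load amino acids on tRNA, 0 passed at 2% against 0% (median -0.04). Over all genes 9.65% were higher and 11.2% lower, and 17 genes are few for such a count. On single arrays 4 were lower with butyrate (15.6% of all genes) and 1 (FARSB, -1.80) with NaCl (7.67%). Of 19 genes by which mTORC1, a growth-promoting kinase complex, senses amino acids, 3 rose at 2% against 0% (9.65% of all genes) and 0 fell: SESN3 by 0.61 (limma adjusted p = 0.0089), RRAGC by 0.38 (adjusted p = 0.0103) and TSC1 by 0.34 (adjusted p = 0.0194). On single arrays 4 of 16 of these genes were higher with butyrate than with medium (15.6% of all genes), SESN3 among them (2.30). Another 1 was lower (15.6% of all genes). A further list had 6 genes tested, of glutathione metabolism, which SLC7A11 feeds, or, for GLUD1, of glutamate metabolism. Of these 1 fell at 2% against 0% (11.2% of all genes): GSR, which regenerates glutathione (-0.33, limma adjusted p = 0.0102). With butyrate, where SLC7A11 was 40.4-fold lower, 0 of these 6 differed from medium by 1 or more in either direction. Over all genes 15.6% were lower and 15.6% higher, and 6 genes are few for such a count. The median of the 6 was -0.17.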

How the data were processed

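Total RNA from 15 cultures was hybridised to Affymetrix arrays, 1 each. The authors deposited log2 values for 54675 probe sets; per the submitters' processing notes they were made with GCRMA, a method that removes background, scales the arrays to each other and combines the probes of a set (version not given in the sources used here). That the scale is log2 was inferred from the values (0.173 to 14.46). No raw intensities were processed, and the values were not normalized again. The platform annotation gives 41097 probe sets 1 gene symbol, 1801 several and 11777 none.

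Genes at log2 5 or more on at least 4 of 12 fluid arrays were tested with limma 3.58.1 in R 4.3.3, with concentration and vessel as factors (6 residual degrees of freedom, 5 for the slope). P-values were two-sided and Benjamini-Hochberg adjusted over 8737 genes. Vessel pairs the arrays by the labels: with the concentration mean taken out, 12 pairs of the same vessel had a median correlation of 0.376, 10 of them over 0.1, and 36 other pairs had -0.114. Taking out that mean pushes the other pairs below 0 where same-vessel pairs are above it, so these values are not separate evidence. Single arrays were compared where the brighter side was at log2 6 or more and counted from a difference of 1, with a side under 5 set to 5. The fits were tested on simulated data. The number of arrays limits the precision.

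The rule for naming was all 9 transporters, up to 3 genes most like each by correlation, and per list up to 4 genes with the smallest p at 2% against 0% and up to 2 with the largest single-array difference. List genes named for other comparisons, and ATF4 and CTH, were picked after their values were seen. Members and the 8 lists (131 entries, 124 matched) were chosen with earlier results of these data known. Alternatives were other filters, probe set means, single probe sets, quantile normalization, median centring, an intensity trend and array weights. Others were no vessel block (for the vessel 1 comparison, no concentration), no vessel 1, the 8 arrays compared, NaCl as control and leaving out each array.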

Additional observations from a re-analysis of the deposited data

Results flagged for a closer look

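Arrays that stood apart from the 3 others of their concentration were found for 3 transporters. The measure was the gap to the nearest array as a share of the whole range, with Dixon's 95% limit for 4 arrays. Chance passes that limit in about 1 of 20 groups of true repeats. These 4 arrays are different vessels and not repeats, so that rate does not hold here. SLC6A20 was at 7.06 in vessel 1 with 1% fluid, where the nearest array was at 5.62 (a share of 0.927), and at 7.14 in vessel 1 with 2% fluid, where the nearest was at 5.18 (0.892). SLC7A5 was at 11.47 in vessel 1 with 0% fluid, against 11.16 (0.904). SLC7A11 was at 11.78 in vessel 4 with 0% fluid, against 11.06 (0.846). The polydextrose slope of SLC6A20 differed between vessel 1 and vessels 2 to 4 by 1.01 per 1% (limma adjusted p = 0.0226).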

How the results depend on the processing

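The counts of transporters passing limma were 2 for 2% against 0%, 0 for 1% against 0%, 0 for 2% against 1%, 2 for vessel 1 and 1 for the slope. With a filter at log2 7, which drops SLC6A20, the counts for 2% against 0%, vessel 1 and the slope were 1, 1 and 0. With an intensity trend and a robust prior the slope count was 2. With array weights they were 5, 2 and 2 for the 3 comparisons of concentrations in that order, 3 for vessel 1 and 5 for the slope, but the estimation of the weights stopped before it converged in some fits, so these counts are tentative. Without vessel 1 they were 5, 2 and 1. With only the 8 arrays compared they were 1 for 2% against 0% and 1 for 2% against 1%. Without the vessel block, so unpaired, the count was 0 for 2% against 0%. With the concentration left out of the fit it was 0 for vessel 1. Over all genes 0 passed in both. Leaving out each array in turn gave 1 to 5 for 2% against 0%, 0 to 2 for 1% against 0%, 0 to 2 for 2% against 1%, 1 to 4 for vessel 1 and 0 to 2 for the slope. The cause of these shifts was not tested beyond the smaller number of genes or arrays. No called value changed sign under these alternatives. SLC7A7 passed at 2% against 0% in 22 of 23 alternatives and SLC6A20 in 14 of 22. The single-array counts stayed within 1.5 times.

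Limits: 1 array per condition, 1 simulation per concentration, 1 probe set each for SLC7A5, SLC7A7, SLC3A2 and SLC1A5, and signal near the low limit for SLC6A20 at 2% polydextrose and with butyrate. RNA levels do not measure transport.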
